A study of Homo sapiens with 7 samples.

Results

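The 2 input DNA libraries of a chromatin study in HT1080 cells, a human fibrosarcoma line, are described here, 1 from siVRK1 and 1 from siControl cells, of 7 libraries in all. They were chosen by their sample titles. siVRK1 cells had received small interfering RNA against the kinase VRK1, siControl cells a non-targeting RNA, both by lipofection. The other 5 libraries were precipitated with antibodies against H2A phosphorylated at T120 (pT120) or ubiquitylated at K119 (ubK119) under each siRNA, and against VRK1 in siControl cells. VRK1 was not profiled after siVRK1, so its depletion could not be checked in these files. With 1 library per siRNA there is no replicate check, and each difference is one between libraries.

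Input DNA is the sonicated, fixed chromatin that goes into an immunoprecipitation, sequenced without antibody. Its coverage follows the number of DNA copies, the ease with which chromatin breaks and the base composition, and it piles up where many copies of a repeat share few places in the reference, as with the satellite repeats around centromeres. Cancer cell lines often carry gains and losses of chromosome arms, and VRK1 is a nuclear kinase known for phosphorylating histones and proteins that hold chromatin to the nuclear envelope. The input is the usual denominator for an antibody library, and the comparison of both inputs shows whether that denominator differed between the siRNAs.

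The siControl input had 26893399 reads and the siVRK1 input 33259276, or 1.24 times as many. Levels are given as RPM, the reads per 1000000 reads of the library, and ratios are siVRK1 over siControl with 95% intervals. The intervals hold for counting error alone: the libraries were amplified by PCR without molecular identifiers, so reads are not independent molecules. A count of 3 reads corresponds to 0.112 RPM for siControl and 0.0902 RPM for siVRK1. Positions are in hg19, on chromosomes 1 to 22. In the column headers both inputs carry the same tag, which differs from those of the antibody libraries, and the labels do not say what the tag stands for.

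Most peaks of both inputs were short, and most of them lay close to the lowest height that the lists allow. The siControl list held 17657 peaks over 5.73 Mb with a median length of 230 bp, and the siVRK1 list 21199 peaks over 7.03 Mb with a median of 238 bp. The median height was 13 reads against a minimum of 12 in the siControl list, and 15 reads against a minimum of 14 in the siVRK1 list. Peaks of 200 bp, the shortest length, made up 34.9% and 30.7% of the lists, and 486 and 609 peaks were at least 1 kb long.

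Which input had more peaks depended on where the lists start. The minimums correspond to 0.446 RPM for siControl and 0.421 RPM for siVRK1. At 0.446 RPM or more, which is 15 reads in the siVRK1 input, 12362 siVRK1 peaks stood against 17657 siControl peaks, a ratio of 0.700, whereas all deposited peaks gave 1.20. Among higher peaks the numbers were close: 731 siControl and 695 siVRK1 peaks reached 1 RPM, 369 and 378 reached 2 RPM, 171 and 169 reached 5 RPM, and 85 and 80 reached 10 RPM. The excess of siControl peaks at equal RPM thus lay among the lowest ones. The common minimum asked for 12 reads in the shallower siControl library and 15 in the siVRK1 library, so fewer siControl reads made a peak. At 1.5 and 2 times that minimum the ratio was 0.861 and 0.969. No direction is drawn from the ratio of 0.700. Heights are whole reads, so a step of 1 read near the minimum moves many peaks in or out.

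The inputs shared nearly every high peak and few of the low ones. Of the siControl peaks 4644 of 17657 overlapped a siVRK1 peak by at least 1 bp (26.3%, 25.7 to 27.0), and of the siVRK1 peaks 4462 of 21199 overlapped a siControl peak (21.05%, 20.5 to 21.6). The share rose with height in both lists. Between 0.446 and 0.5 RPM it was 12.6% of siControl and 13.7% of siVRK1 peaks, between 0.6 and 0.8 RPM 77.1% and 71.3%, and between 0.8 and 1 RPM 93.6% and 95.8%. From 1 to 2 RPM it reached 99.7% (98.5 to 99.99) for siControl and 97.2% (94.7 to 98.7) for siVRK1 peaks. All 171 siControl and all 169 siVRK1 peaks of at least 5 RPM had a partner. By length, 8.58% of siControl and 6.12% of siVRK1 peaks of 200 bp were shared, against 99.6% and 96.6% of those of at least 1 kb.

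**Figure D1:**
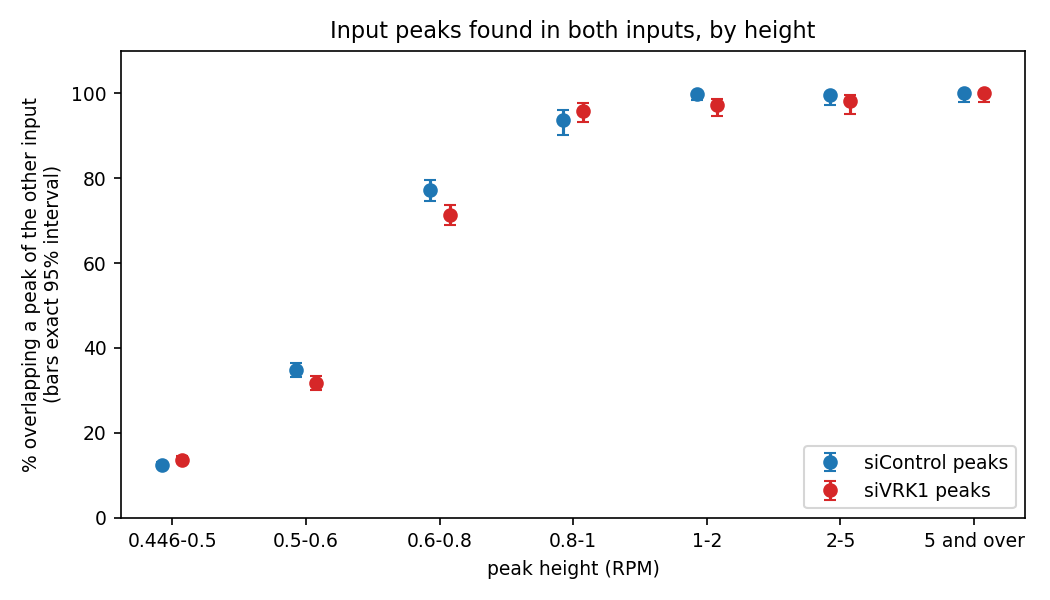
Share of input peaks (vertical axis, percent) that overlap a peak of the other input, by peak height in RPM (horizontal axis), for siControl (blue) and siVRK1 (red) peaks, with exact 95% intervals of counting error. The share rises from 12.6% and 13.7% in the lowest class to 100% in the highest.

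Peaks that were called in 1 input were mostly places where the other input had reads too. The 13013 siControl peaks with no siVRK1 partner had a median of 12 siControl and 7 siVRK1 reads, and the 8510 siVRK1 peaks at the common minimum with no siControl partner had a median of 17 siVRK1 and 7 siControl reads. The choice of such peaks fixes which input is higher, so no direction is drawn from them. A few stood far above the minimum. The siControl peak at chr6:115577021-115577240 had 60 siControl and 6 siVRK1 reads, and that at chr10:116966623-116967012 had 34 and 8. In the other direction, chr21:9825424-9826522 had 26 siControl and 354 siVRK1 reads, chr2:33141290-33141569 had 12 and 109, chr17:41466012-41466748 had 17 and 128, and chr20:26188730-26189568 had 24 and 163. These last 4 places, the highest siVRK1 peaks with no siControl partner, were also called in all 5 antibody lists. The 4 highest siControl peaks with no siVRK1 partner varied in this. That on chromosome 6 was in 1 antibody list, that on chromosome 10 and chr11:50651371-50651767 (29 and 14 reads) were in 0, and chr21:10709487-10710449 (66 and 39 reads) was in 4.

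The highest input signal lay next to centromeres, where satellite repeats are found. Over all high places, near centromeres or not, the siControl input was mostly the higher one in RPM. Places of at least 5 RPM in either input, with only the longest of overlapping peaks used, numbered 183 and covered 313 kb. They held 0.938% of the siControl and 0.838% of the siVRK1 library, or 9384 and 8379 RPM, a ratio of 0.893 (0.888 to 0.898). Single ratios lay below 1 at 132 of 183 places, with the interval below 1 at 77 and above 1 at 26, and the median was 0.884. Without the highest place, on chromosome 1, the ratio over the other 182 was 0.916 (0.911 to 0.922).

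That highest place, chr1:121483973-121485649, had 52660 siControl and 52414 siVRK1 reads, or 1958 and 1576 RPM. The ratio of 0.805 (0.795 to 0.815) lies next to 0.809, the inverse of the depth ratio, because both inputs had nearly the same number of reads there. The place chr6:58774261-58780066 had 22463 and 22434 reads (0.808, 0.793 to 0.823), and chr19:27731774-27740657 had 16183 and 16402 (0.820, 0.802 to 0.838). On chromosome 7, chr7:61968151-61972174 had 11728 and 12104 reads (0.835, 0.814 to 0.856), and on chromosome 18, chr18:18510970-18520553 had 14255 and 14736 (0.836, 0.817 to 0.855). These 5 places were chosen among the highest and longest peaks for their read numbers, which differed by little. Of the 32 places with over 1000 reads in each input, 11 had read numbers within 5% of each other and 6 had RPM within 5%, while 18 had ratios below 0.9 and 10 above 1. Of all 183 places, 41 had read numbers and 19 had RPM within 5%. How duplicate reads were handled is not stated in the labels or headers, and its part in these values was not tested.

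Some other high places did not share the low ratio. The longest input peak, chr10:42373709-42397416, had 28089 and 33896 reads, or 1044 and 1019 RPM, a ratio of 0.976 (0.960 to 0.991). On chromosome 4, chr4:49149071-49153613 had 3080 and 4071 reads (1.07, 1.02 to 1.12). Places less than 1 Mb apart were also summed, a step added after the values were seen. The 7 places of chromosome 4 from 49.1 to 49.7 Mb summed to 345 and 369 RPM (1.07, 1.04 to 1.10), whereas the 11 places of chromosome 7 from 61.1 to 62.0 Mb summed to 589 and 481 RPM (0.817, 0.799 to 0.835). The intervals of these groups do not overlap. On chromosome 2 the ratio differed within the chromosome: 14 places from 92.3 Mb on had 387 and 323 RPM (0.834, 0.812 to 0.857), and 8 places at 133 Mb, far from the centromere, had 148 and 202 RPM (1.36, 1.31 to 1.42).

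At a small group of high places the inputs differed by 2-fold or more in RPM, and the values do not tell which input was the unusual one. Of the 183 places, 6 had a ratio of at least 2 and 0 had a ratio of 0.5 or less. At chr1:156186094-156186815 the siControl input had 31 reads and the siVRK1 input 463, or 1.15 and 13.9 RPM, a ratio of 12.1 (8.39 to 17.98). Next came chr6:119558406-119558912 with 57 and 267 reads (3.79, 2.84 to 5.13) and chr11:85194939-85195283 with 45 and 173 reads (3.11, 2.23 to 4.42). These places reached 5 RPM through the siVRK1 input alone and were picked for their ratios, so a low siControl value is partly fixed by the choice. No direction is drawn from the count of 6 against 0 or from the values that follow. On chromosome 1 the 5 antibody libraries had 6.22 to 19.8 RPM, on chromosome 6 they had 4.18 to 11.02 RPM and on chromosome 11 they had 5.11 to 8.68 RPM, against 1.15, 2.12 and 1.67 RPM in the siControl input. The remaining 3 were chr21:9826786-9827787 (328 and 833 reads, 2.05) and a pair on chromosome 2, chr2:133016365-133017577 (186 and 492, 2.14) and chr2:133032143-133033678 (210 and 531, 2.04). Between that pair, chr2:133025090-133031970 had 1862 and 3354 reads (1.46, 1.38 to 1.54). Reads that fit several places in the genome can be assigned or dropped by the aligner. The column headers of all libraries hold a string that may stand for aligner options. Neither labels nor headers spell out how such reads were treated.

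**Figure D2:**
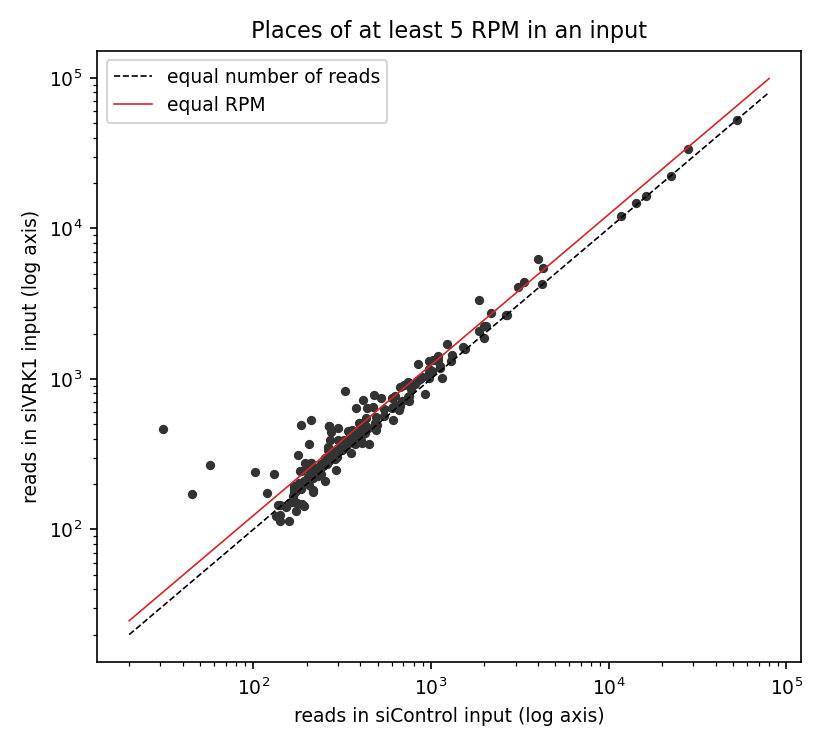
Reads in the siControl (horizontal axis, log) and siVRK1 input (vertical axis, log) at the 183 places of at least 5 RPM in either input. The dashed line marks equal read numbers and the red line equal RPM, and the place with the most reads falls on the dashed line (52660 and 52414 reads, chromosome 1), while that with the second most lies near the red line (28089 and 33896 reads, chromosome 10).

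One stretch served as a reference of another kind. At chr1:564447-570485, which resembles mitochondrial DNA and was chosen after its values were seen, the inputs had 1928 and 2393 reads, or 71.7 and 71.9 RPM. The ratio was 1.004 (0.945 to 1.07), so no difference was detectable there at this depth. The antibody libraries held 9.11 to 35.6 RPM in the same stretch, all below both inputs.

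Away from such places, input coverage was read over the regions called in the 5 antibody lists, where the files give the reads of both inputs. Of overlapping regions only the longest was used, which left 89182. Of these, 88530 regions that had no more than 100 reads of either input were kept. The inputs had 17713 and 18737 RPM there, a ratio of 1.06 (1.05 to 1.06). Outside all input peaks, 80809 regions gave 12564 and 13300 RPM, also 1.06 (1.05 to 1.06). The 652 regions that were left out held 1.20% of the siControl and 1.11% of the siVRK1 library, and with them the ratio was 1.01 (1.004 to 1.01).

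The input ratio differed with the antibody list that supplied the regions, although no antibody touched the input libraries. Over the regions of the VRK1 list the inputs had 6050 and 6737 RPM, a ratio of 1.11 (1.11 to 1.12). The siControl pT120 list gave 2992 and 3204 RPM (1.07, 1.06 to 1.08) and the siControl ubK119 list 7645 and 8070 RPM (1.06, 1.05 to 1.06). The lists of siVRK1 cells lay at the extremes and on opposite sides of 1. The siVRK1 ubK119 list gave 4323 and 5280 RPM, a ratio of 1.22 (1.21 to 1.23), and the siVRK1 pT120 list 8522 and 7685 RPM, a ratio of 0.902 (0.897 to 0.907). Outside input peaks the lists moved further apart, to 1.35 (1.34 to 1.37) and 0.876 (0.869 to 0.882), with 1.18 for VRK1, 1.17 for siControl pT120 and 1.09 for siControl ubK119. None of the intervals of these 5 lists outside input peaks overlapped another, except those of VRK1 (1.17 to 1.19) and siControl pT120 (1.14 to 1.19).

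**Figure D3:**
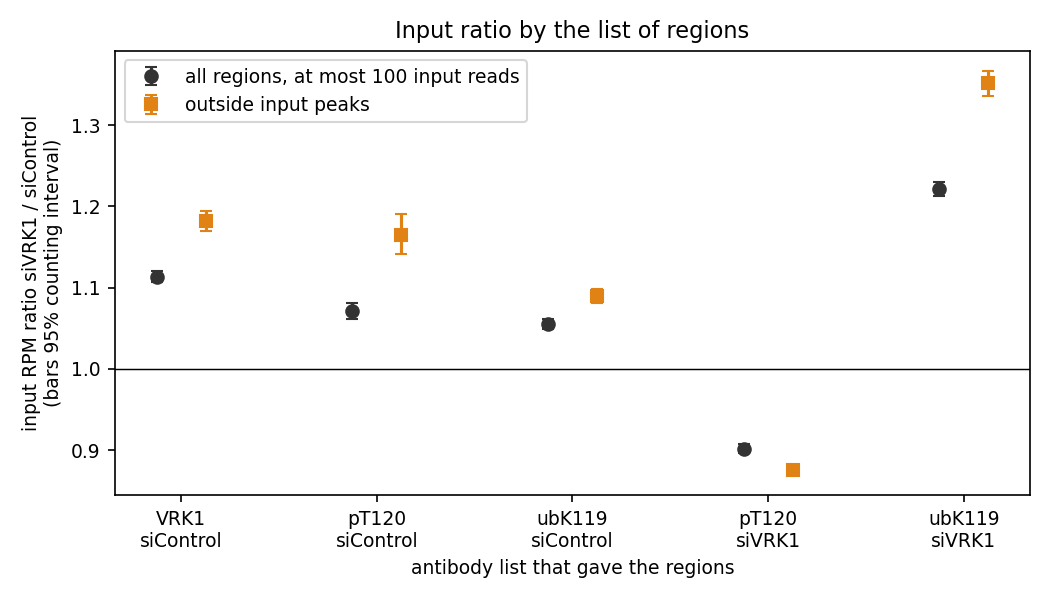
Ratio of siVRK1 to siControl input RPM (vertical axis) over the regions of each antibody list (horizontal axis), for regions of no more than 100 reads of either input (circles) and for those outside input peaks (squares), with 95% counting intervals. The siVRK1 ubK119 list lies highest at 1.22 and 1.35 and the siVRK1 pT120 list lowest at 0.902 and 0.876.

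The ratio also moved with how many input reads a region had. Regions with 0 to 5 reads in both inputs together, 21363 in number, had a ratio of 0.910 (0.897 to 0.924), those with 6 to 10 reads 1.02 (1.01 to 1.03), those with 11 to 20 reads 1.10 (1.10 to 1.11) and those with 21 to 50 reads 1.11 (1.11 to 1.12). It came back to 1.01 (0.996 to 1.02) for 101 to 200 reads and 1.01 (0.998 to 1.02) for 201 to 1000, and the 89 regions above 1000 reads had 0.897 (0.892 to 0.902). Both ends of the coverage range therefore lay below 1 over the pooled regions, and the part of the lists that supplied them was not tested. By length the ratio moved little, from 1.04 (1.03 to 1.05) in regions of 200 bp to 1.08 (1.07 to 1.09) in those of 501 to 1000 bp, and it was 1.01 (0.994 to 1.02) in those above 1 kb.

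Along the chromosomes, the siVRK1 input was highest relative to the siControl input near the chromosome ends. Within 2 Mb of an end the inputs had 1144 and 1469 RPM, a ratio of 1.28 (1.27 to 1.30), and from 2 to 5 Mb 1416 and 1771 RPM, a ratio of 1.251 (1.23 to 1.27). Further inside the ratio was 1.01 (1.001 to 1.02) from 5 to 10 Mb, 1.07 (1.06 to 1.08) from 10 to 20 Mb and 1.03 (1.02 to 1.04) from 20 to 40 Mb. It was 1.01 (1.01 to 1.02) from 40 to 80 Mb and 0.968 (0.954 to 0.982) beyond 80 Mb. The step between the outer 5 Mb and the rest is larger than the intervals. The class from 5 to 10 Mb holds the peak-rich part of chromosome 18, described with the blocks.

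In all 5 lists the class within 2 Mb of an end had the highest ratio, and in 4 of them that ratio was above 1. Over siControl pT120 the class from 2 to 5 Mb was equally high, at 1.28. From the outermost class to the innermost, the ratio went from 1.49 to 1.08 over the siVRK1 ubK119 list, from 1.28 to 1.03 over the siControl pT120 list and from 1.26 to 0.987 over the siControl ubK119 list. The VRK1 list gave 1.29 (1.253 to 1.32) within 2 Mb of an end and 1.04 beyond 80 Mb. Over the siVRK1 pT120 list the ratio stayed below 1 in every class, at 0.942 (0.909 to 0.975) within 2 Mb and 0.885 (0.869 to 0.902) beyond 80 Mb, with intervals that do not overlap. The fall was not steady in this list. From 2 to 5 Mb it had 0.915, and from 10 to 20 Mb 0.933 (0.918 to 0.948), which overlaps the value within 2 Mb.

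**Figure D4:**
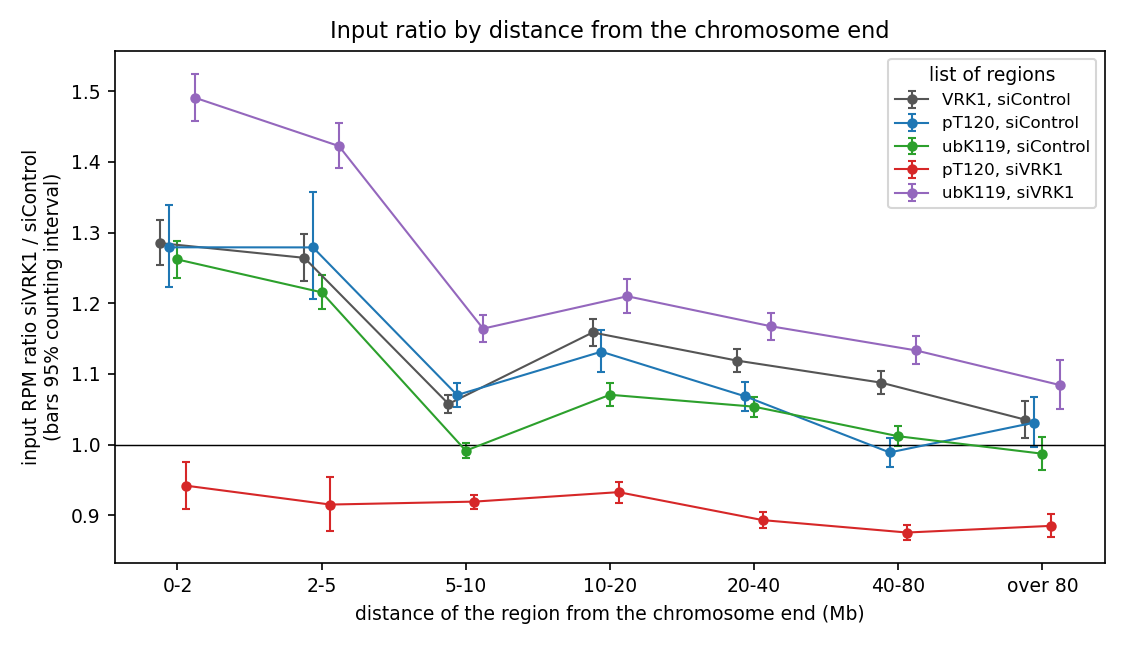
Ratio of siVRK1 to siControl input RPM (vertical axis) by distance of the region from the chromosome end in Mb (horizontal axis), with 1 line for each antibody list that supplied regions and 95% counting intervals. In 4 lists the classes within 5 Mb of an end lie highest, up to 1.49 for siVRK1 ubK119, and the siVRK1 pT120 line stays between 0.876 and 0.942.

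Windows of 5 Mb gave a finer view. Of 566 windows with a region, 452 had at least 20 regions and 100 reads in each input and were used, with a median of 431 siControl reads and 568 siVRK1 reads. The 114 left out included 35 of the 39 windows of chromosome 4, 14 of 17 on chromosome 15 and 12 of 16 on chromosome 18, where few regions were called, so these chromosomes are poorly covered. Window ratios ran from 0.709 to 1.69 with a median of 1.03 and quartiles of 0.914 and 1.14. The SD of their log2 values was 0.23, against 0.10 for counting error alone, so the windows differed by more than their counts allow. Neighbouring windows resembled each other, with a Pearson r of 0.527 over 403 pairs. Neighbours share a library, its depth and local base composition, and r is given as a description.

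More windows were higher in the siVRK1 input than lower. The siVRK1 input was more than 25% higher in 58 of 452 windows (12.8%) and more than 20% lower in 19 (4.20%), which makes 77 past either limit (17.0%). The interval lay above 1 in 135 windows (29.9%) and below 1 in 74 (16.4%), and it included 1 in the other 243. Scaled to the median window ratio, 46 windows lay above the upper limit and 30 under the lower one, so the balance between the directions depends on the scaling. Chromosomes 1 and 17 had 7 windows each above the limit of 25%, chromosome 11 had 6 and chromosome 19 had 5. Chromosomes 3, 5 and 6 had 4 windows each under the lower limit of 0.8.

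The windows at chromosome ends stood out here too. Of 42 windows centred within 5 Mb of an end, 23 lay above the upper limit, 0 under the lower one, and 41 had a ratio above 1, with a median of 1.30 (range 0.933 to 1.60). Of the 410 inner windows, 35 lay above and 19 under the limits, with a median of 1.02.

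The 2 windows with the highest ratios were inner ones by this rule, centred 8.58 and 7.5 Mb from an end. The first, on chromosome 22 from 40 to 45 Mb, rested on 128 and 268 reads, or 4.76 and 8.06 RPM (1.69, 1.37 to 2.11). On chromosome 4 from 5 to 10 Mb there were 439 and 869 reads (1.60, 1.43 to 1.799). The next 4 lay at chromosome ends. The window of chromosome 21 from 45 to 50 Mb had 631 and 1246 reads (1.60, 1.45 to 1.76), and the last one of chromosome 10, from 135 Mb, had 104 and 197 (1.53, 1.20 to 1.96). The first 5 Mb of chromosome 1 had 1616 and 3075 reads, or 60.1 and 92.5 RPM (1.54, 1.45 to 1.64), and the window from 60 to 65 Mb at the end of chromosome 20 had 1029 and 1927 (1.51, 1.40 to 1.63).

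The lowest ratios lay inside the arms or next to a centromere. On chromosome 6 from 140 to 145 Mb there were 155 siControl and 136 siVRK1 reads (0.709, 0.559 to 0.899), on chromosome 5 from 160 to 165 Mb 173 and 155 (0.724, 0.579 to 0.905) and on chromosome 3 from 95 to 100 Mb 170 and 154 (0.732, 0.585 to 0.916). These intervals reach close to 1. More reads stood behind chromosome 6 from 60 to 65 Mb, with 563 and 512 (0.735, 0.651 to 0.830), and chromosome 3 from 90 to 95 Mb, with 660 and 607 (0.744, 0.665 to 0.832, and 0.843 outside input peaks). Chromosome 3 from 25 to 30 Mb had 237 and 219 reads (0.747, 0.619 to 0.902).

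The source of the regions moved with the window ratios. In windows above the upper limit, 9.998% of the regions came from the siVRK1 pT120 list and 30.1% from the siVRK1 ubK119 list. In windows under the lower limit these shares were 76.6% and 1.51%, and over all windows used 43.6% and 11.3%. With the regions of 1 list at a time, chosen after the data were seen, the VRK1 list put 84 of 214 windows above the upper limit (39.3%) and 3 under the lower one (1.40%). The siControl ubK119 list put 37 of 248 above (14.9%) and 7 under (2.82%). The siVRK1 ubK119 list put 91 of 148 windows above (61.5%) and 0 under (0.00%), and the siVRK1 pT120 list 2 of 339 above (0.590%) and 62 under (18.3%). A window count of either direction therefore describes the inputs over given regions and not the whole window.

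Part of the pattern held across lists and part did not. Between lists, with no region in common, window ratios had a Pearson r of 0.626 for VRK1 and siControl pT120 (26 windows) and 0.570 for the ubK119 lists (121 windows). For VRK1 and siVRK1 pT120 r was 0.0845 (139 windows). These are descriptions, since all windows share the same pair of libraries.

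Runs of at least 4 adjacent windows with all intervals on 1 side of 1, a rule chosen after the values were seen, numbered 7 above and 3 below. The longest covered the first 55 Mb of chromosome 1, where 11 of 11 windows had ratios from 1.12 to 1.54, and the next 13 windows, to 120 Mb, had ratios from 0.864 to 1.05 with intervals that all included 1. Over this stretch the inputs had 378 and 488 RPM, a ratio of 1.29 (1.26 to 1.32). The VRK1 list gave 1.31 (1.26 to 1.36), the siControl ubK119 list 1.26 (1.21 to 1.31) and the siVRK1 pT120 list 1.04 (0.983 to 1.10) there. The other runs above 1 were on chromosome 10 from 115 to 140 Mb (1.22), chromosome 11 from 60 to 80 Mb (1.31), chromosome 17 from 15 to 50 Mb (1.24), chromosome 19 from 0 to 20 Mb (1.33) and from 30 to 60 Mb (1.23), and chromosome 20 from 15 to 65 Mb (1.15). Because runs of either side were chosen by window ratios pooled from these lists, the side that a list shows in them is partly fixed. In all 7 runs the intervals of the VRK1, siControl ubK119 and siVRK1 ubK119 lists lay above 1. That of the siVRK1 pT120 list lay above 1 on chromosome 17, at 1.07 (1.01 to 1.14), and below 1 on chromosome 10, at 0.862 (0.779 to 0.954), and it included 1 in the other 5.

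The 3 runs below 1 were less uniform across lists. They covered chromosome 3 from 90 to 120 Mb (0.870, 0.848 to 0.893) and from 145 to 180 Mb (0.896, 0.880 to 0.912), and chromosome 13 from 55 to 85 Mb (0.855, 0.823 to 0.888). Of their pooled antibody regions, 2460, 4937 and 1627 in number, most lay in places of the siVRK1 pT120 list, which had 1897, 3974 and 1397 regions there. The VRK1 list gave 0.937 (0.881 to 0.997) in the first run but 1.05 (1.01 to 1.10) and 1.01 (0.890 to 1.14) in the others. The direction thus turned with the list on chromosome 3 from 145 to 180 Mb, while from 90 to 120 Mb it was below 1 in all 5 lists, from 0.828 for siVRK1 pT120 to 0.937 for VRK1.

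**Figure D5:**
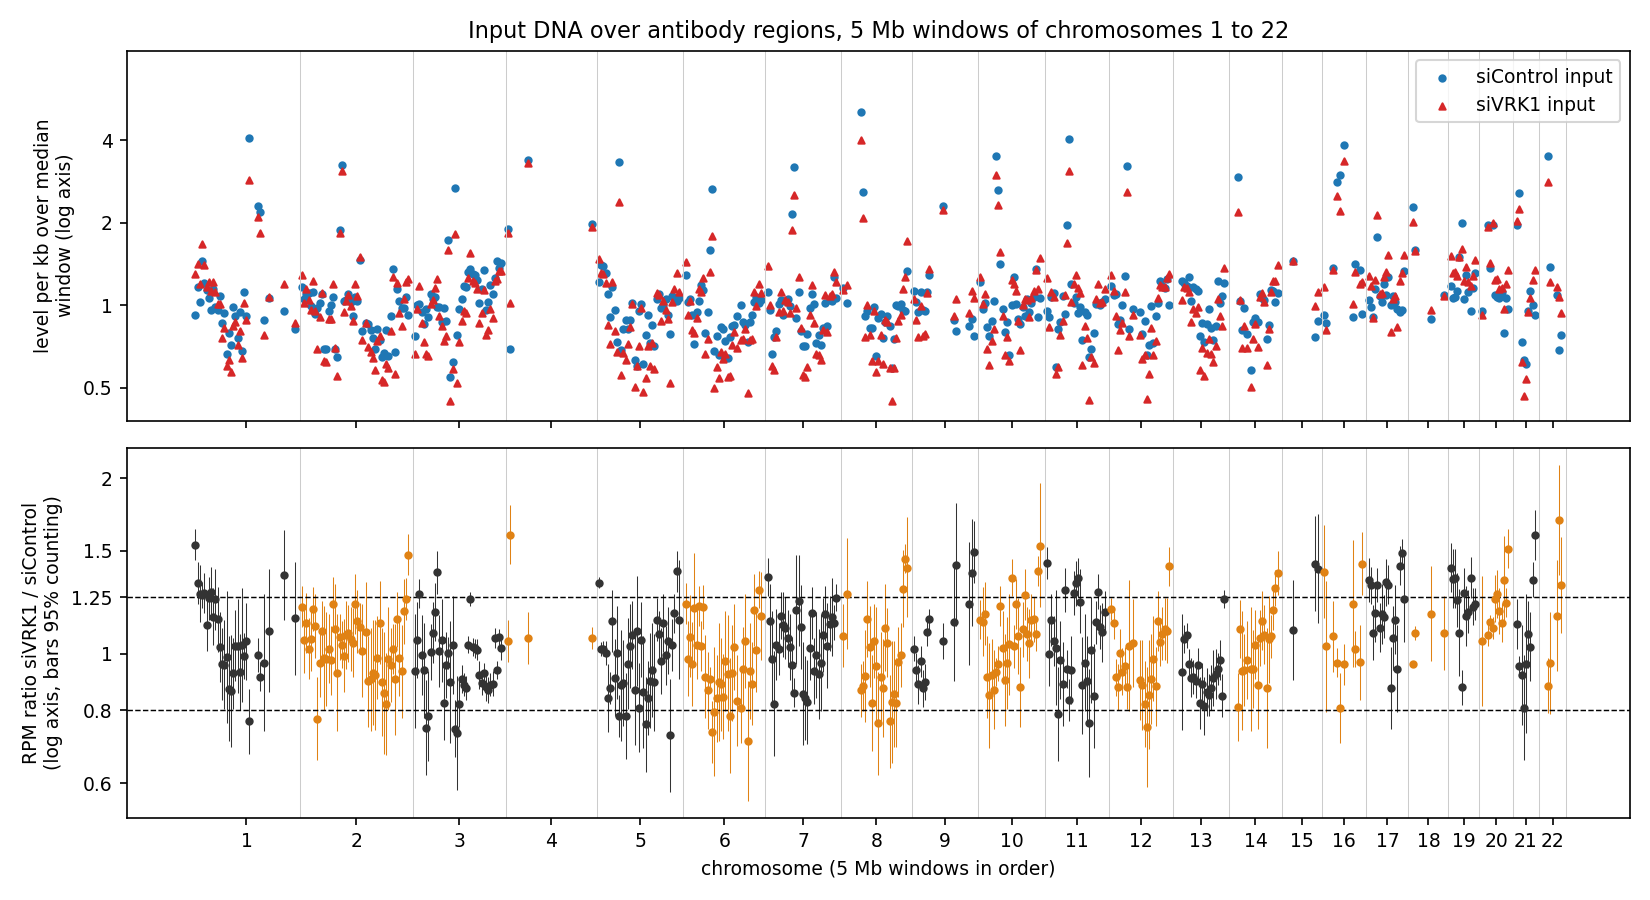
Input level per kb over the median window (top, log axis) for siControl (blue) and siVRK1 (red), and their RPM ratio (bottom, log axis, 95% counting intervals, colours alternating by chromosome), in 452 windows of 5 Mb along chromosomes 1 to 22. The levels rise and fall together, and ratios above the upper dashed line cluster at chromosome ends, such as 1.54 in the first window of chromosome 1.

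Summed by chromosome over the antibody regions, the siVRK1 input had the higher RPM on most chromosomes. Of 22 chromosomes 19 had a ratio above 1, 17 of them with the interval above 1. The median window ratio was nevertheless below 1 on chromosomes 5, 6, 8 and 12 (0.993, 0.939, 0.960 and 0.967). On the others of these 19 it was above 1. Chromosome 17 had the highest, with 488 and 621 RPM (1.27, 1.245 to 1.30), followed by chromosomes 15 (1.19, 1.10 to 1.29), 19 (1.19, 1.16 to 1.22) and 20 (1.15, 1.13 to 1.17). The intervals of chromosomes 15 and 19 overlap with each other. Chromosome 18 was the lowest, with 2606 and 2551 RPM (0.979, 0.969 to 0.989), then chromosomes 13 (0.993, 0.978 to 1.01) and 3 (0.999, 0.991 to 1.01), whose intervals include 1. Outside input peaks chromosome 18 stood at 0.998 (0.978 to 1.02), and chromosomes 3 and 13 at 0.980 (0.970 to 0.989) and 0.973 (0.957 to 0.989). Over the VRK1 list 21 of 22 chromosomes lay above 1, the exception being chromosome 22 at 0.872 (0.789 to 0.963), which had 1.08 (1.01 to 1.15) over all lists. Outside input peaks chromosome 22 had 1.27 (1.16 to 1.40) and chromosome 17 had 1.24 (1.21 to 1.28), with intervals that overlap.

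On chromosome 17 the median window ratio was lowest from 50 to 70 Mb, at 1.004. The limits of the stretches given here were set with the ratios known, so such contrasts are partly fixed by the choice. From 0 to 50 Mb 9 of 10 windows had intervals above 1, with a median ratio of 1.24, and from 70 to 85 Mb 3 of 3 windows did, with ratios from 1.24 to 1.49. From 50 to 70 Mb the 4 windows had ratios from 0.874 to 1.14 with intervals that include 1. On chromosome 13 from 20 to 110 Mb, 10 of 18 windows had intervals below 1 and 2 above, with a median of 0.909.

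Levels within each input show which parts of the genome were rich in input DNA under both siRNAs. Per kb of antibody region, window levels of both inputs had a Pearson r of 0.902 on the log2 scale and a Spearman rho of 0.869 over 452 windows, which share the regions and the genome. In 61 windows (13.5%) both inputs were more than 25% above their median, and in 71 (15.7%) both were more than 20% under it. The highest were next to centromeres: chromosome 8 from 40 to 45 Mb stood at 5.06 times the median in the siControl and 4.02 times in the siVRK1 input, chromosome 16 from 45 to 50 Mb at 3.84 and 3.38 times, and chromosome 11 from 50 to 55 Mb at 4.06 and 3.10 times. Chromosome 1 from 120 to 125 Mb (4.08 and 2.86 times), chromosome 4 from 45 to 50 Mb (3.39 and 3.30 times) and chromosome 10 from 35 to 40 Mb (3.52 and 3.00 times) came next. Outside input peaks, 23 of 438 windows were raised in both inputs.

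Over the pooled regions, windows above 2 times the median in both inputs and the poorest windows were mostly lower in the siVRK1 input. The siVRK1 pT120 list, over which the input ratio was 0.902, gave 43.6% of the regions of all windows used. Its part in these values was not tested. Of the 20 windows above 2 times the median in both inputs, 17 had a ratio below 1. All 61 raised windows together did not lean this way. Their median ratio was 1.04, with 4 above the upper limit and 4 under the lower one. Of the 71 low windows 60 had a ratio below 1, 8 of them under the lower limit and 0 above the upper one, with a median of 0.900. The lowest windows included chromosome 3 from 80 to 85 Mb, at 0.546 and 0.447 times the median (134 and 148 reads), and chromosome 8 from 110 to 115 Mb, at 0.592 and 0.449 times (139 and 142 reads). The intervals of their ratios, 0.702 to 1.14 and 0.649 to 1.05, include 1.

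Input peaks were not spread evenly, and their numbers per window rose and fell together in both inputs. Peaks per window, at the common minimum of 0.446 RPM, had a Pearson r of 0.875 between the inputs on the scale of log2(number + 1). Blocks of at least 2 adjacent windows with 40 or more peaks in each input, a rule chosen after the values were seen, numbered 13. The rule asks for many peaks in both inputs, so it fixes that they share the blocks. They made up 40 of 566 windows (7.07%) and held 44.8% of the siControl and 47.7% of the siVRK1 peaks. The other windows had medians of 14 and 7 peaks.

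The densest block was on chromosome 18 from 5 to 15 Mb, with 2502 siControl and 1934 siVRK1 peaks. Its antibody regions held 69155 and 83569 input reads, at 2.16 and 1.94 times the median level. The ratio of 0.977 (0.967 to 0.987) was 0.992 (0.972 to 1.01) outside input peaks. Within it, the window from 5 to 10 Mb had 2181 and 1646 peaks (0.962, 0.952 to 0.972), and the next one 321 and 288 peaks (1.09, 1.06 to 1.12). The raised level of this block was thus present in both inputs, and their ratio outside input peaks did not differ from 1 beyond counting error.

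Blocks on chromosomes 3, 5 and 20 followed. Chromosome 3 from 120 to 160 Mb had 1414 and 993 peaks at 1.28 and 1.22 times the median level (1.04, 1.03 to 1.06), and from 105 to 115 Mb 302 and 129 peaks at 1.12 and 0.920 times (0.894, 0.863 to 0.925). The first 20 Mb of chromosome 5 had 893 and 738 peaks at 1.31 and 1.37 times (1.14, 1.13 to 1.16), and chromosome 20 from 15 to 30 Mb 510 and 515 peaks at 1.59 and 1.63 times (1.11, 1.09 to 1.14). On chromosome 13 from 40 to 50 Mb there were 197 and 96 peaks at 1.15 and 0.956 times (0.904, 0.862 to 0.948). In these blocks the input with the larger share of reads was not always the one with more peaks. At the common minimum siControl peaks outnumbered siVRK1 peaks on 20 of 22 chromosomes. The exceptions were chromosome 19, with 271 and 349 peaks, and chromosome 22, with 44 and 53. That minimum is 12 reads for siControl and 15 for siVRK1, and all deposited peaks gave a number ratio of 1.20.

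The antibody libraries differed between the siRNAs over the same windows, beside the inputs. In the 214 windows of the VRK1 list, siVRK1 over siControl had a median of 1.18 for the inputs, 0.441 for pT120 and 1.76 for ubK119. In the fifth of windows with the lowest input ratio the medians were 0.971, 0.641 and 1.48, and in the fifth with the highest 1.41, 0.376 and 1.96. Across windows r between the input and antibody log2 ratios was -0.682 for pT120 and 0.523 for ubK119, as a description of libraries that share regions and base composition. Windows with a high input ratio were thus those with a low pT120 and a high ubK119 ratio, and their part in one another was not tested.

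The spread of window ratios between the inputs lay near the low end of the range over pairs of libraries. The SD of the log2 ratio over these 214 windows was 0.22 for the inputs, against 0.12 from counting. It was lower only between the siVRK1 input and siControl pT120, at 0.17. The SD was 0.25 between the siControl input and siControl pT120, 0.40 between the pT120 libraries and 0.27 between the ubK119 libraries. The widest pair, siVRK1 pT120 and siVRK1 ubK119, had 0.57.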

How the data were processed

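Fixed, sonicated nuclei gave the input libraries, which the headers call whole-cell extract (WCE). Per the labels' protocols libraries went through 20 PCR and 36 sequencing cycles. The build hg19 and the tools Bowtie 0.12.8, CASAVA 1.8.2 and Partek are listed in the submitters' processing notes, with no role for each. How peaks were set, duplicates handled or an input subtracted, and whether positions start at 0 or 1, is not stated there.

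Per the file headers, the deposited lists give, for each peak of a library, its length, its height as a signal (the highest number of extended reads), that height as RPM, a p-value of the authors' caller (not used for any result) and, for every other library, the percent of the region that its peaks cover. The deposited lists also hold, per the file headers, an unnormalized read count of each library in each region. Library totals are height over RPM. Overlap calls at 1 bp or more differed from the deposited percent in 0 cases.

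Ratios have exact conditional binomial 95% intervals and shares exact Clopper-Pearson ones (Python 3.11.15, pandas 2.3.3, numpy 2.4.6, scipy 1.17.1), and the ratio was tested on simulated data. No p-value was computed, with 1 library per siRNA. Regions above 100 reads in either input were left out of ratios unless stated, and windows needed 20 regions and 100 reads in each input. Distances run to the last listed peak of a chromosome or, at the other end, to position 0, and for chromosomes 13, 14, 15, 21 and 22 to the end of the long arm only. The rule names the 6 windows with the highest and lowest ratio, the highest level and the most peaks, the 4 with the lowest level, and per input the 6 highest peaks, the 4 highest without a partner in the other input and the 4 longest. Of the windows with the lowest level and with the most peaks, and of the peaks, only some are given. The members, windows, lists and the stretches of chromosomes 1, 13 and 17 were chosen with earlier results of these data known. The blocks, the runs, the classes of distance, height and read number, the places of at least 5 RPM, their groups and the single-list windows were chosen after their values were seen. No annotation of hg19 was at hand, so peaks are named by position and no sequence is printed.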

Additional observations from a re-analysis of the deposited data

How the results depend on the processing

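The input ratio over antibody regions (1.06) was 1.01 with no limit on input reads, 1.11 over the VRK1 list, 1.07 over siControl pT120 and 1.22 over siVRK1 ubK119. It turned below 1 over siVRK1 pT120 (0.902) and was 0.999 when scaled to the regions outside input peaks, which that scaling sets near 1. Windows past the fold limits (77 of 452) numbered 34 of 257 at 10 Mb and 146 of 697 at 2.5 Mb, 47 of 287 with at least 50 regions and 300 reads, and, with single lists added after seeing the data, 11 of 50 for siControl pT120 and 44 of 248 for siControl ubK119. The peak number ratio (0.700) turned above 1 with all deposited peaks (1.20) and with the same minimum in reads (3.71, or 5714 siControl against 21199 siVRK1 peaks), which favours the deeper library. The common RPM minimum asks for fewer reads in the shallower library. The share of siControl peaks found in the siVRK1 input (26.3%) was 23.1% with an overlap of 50% of the shorter peak, 23.1% at the common RPM minimum and 98.8% for peaks of 2 times that minimum. Windows raised in both inputs (61 of 452) numbered 23 of 438 outside input peaks. For other changes the cause was not tested. No paired analysis was possible because each siRNA had 1 input library and the labels carry no replicate numbers. Depth limits single windows: 243 of 452 intervals included 1.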
